A study of Mus musculus with 16 samples.

Results

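The adenylyl cyclases and the proteins that read or remove cyclic AMP were followed in mouse pancreatic islets lacking functional Insm1 in adult beta cells. Insm1 encodes a zinc finger protein that regulates transcription in endocrine cells. The set was chosen by name, with earlier results of these data known, and comprised 10 genes. These were the cyclases Adcy3, Adcy5, Adcy6, Adcy7, Adcy8 and Adcy9, the cAMP-binding exchange factor gene Rapgef4, the protein kinase A genes Prkaca and Prkar1a, and the phosphodiesterase gene Pde3b. Of these, 9 had at least 1 probe set that named them alone, 23 probe sets in all, among 18193 genes tested. The signal of Rapgef4, which encodes Epac2, was not analysed here, because no probe set carried its name in the annotation used. For each gene the brightest probe set over all arrays was taken as its measure, and the other probe sets are given beside it.

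Islet RNA from 8 mutant and 8 control preparations was hybridised to 16 arrays. The mutants were RIPcreER; Insm1flox/lacZ and the controls RIPcreER; Insm1flox/+, so both groups carried a tamoxifen-inducible Cre recombinase driven by the rat insulin promoter and 1 floxed Insm1 allele. The background of all animals mixed C57BL/6, 129/ola and CBA/J, and the series text calls the controls litter matched. Each animal was given a 25 mg tamoxifen pellet that released over 21 days when 4 to 5 weeks old, and islets were prepared at 8 to 12 weeks. The floxed allele could therefore be deleted in control beta cells too, which kept 1 wild-type allele, and the lacZ allele of the mutants was present in all their cells. The comparison asks which islet transcripts differ between animals with lacZ and animals with wild-type sequence at the second Insm1 allele. Values are log2 signals, differences are mutant minus control, n is 8 per group, and the number of arrays limits the precision.

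Cyclic AMP is made from ATP by adenylyl cyclases, which are switched on by receptors that couple to the stimulatory G protein and restrained by those that couple to inhibitory G proteins. In beta cells the incretin hormones GLP-1 and GIP raise cAMP, and cAMP then enhances glucose-stimulated insulin exocytosis through protein kinase A and Epac2 and alters transcription through CREB. Phosphodiesterases end the signal. The cyclases differ in how calcium acts on them: the product of Adcy8 is stimulated by calcium and calmodulin, whereas those of Adcy5 and Adcy6 are inhibited by calcium.

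Bulk islet signal cannot tell fewer cells of a type from less RNA per cell, and the preparations differed in what they held. The mean of 13 immune-cell markers ranged from 7.36 to 8.76 in controls and from 7.49 to 9.74 in mutants, with mutant replicates 1 and 3 and control replicate 1 the highest at 9.74, 9.43 and 8.76. The mean of 12 acinar markers was 12.72 ± 0.78 (SD) in controls and 11.29 ± 1.55 in mutants, lower in 8 of 8 same-numbered pairs (exact permutation test within pairs, adjusted p = 0.0234; over all splits, adjusted p = 0.0839). Of 7 measured beta-cell markers, 5 fell and 0 rose, with Ins2 at 15.36 in controls and 15.37 in mutants, near the highest value of the data at 15.39. The beta-cell mean went from 13.22 to 12.72 (exact permutation test over all splits, adjusted p = 0.00186), the alpha-cell mean from 10.11 to 10.56 (0.00311) and the duct mean from 7.20 to 6.88 (0.0028). Of 3 measured alpha-cell markers 2 were called higher, and of 4 measured duct markers 1 was called lower. The delta and PP, endothelial, stroma and Y-linked means differed by 0.14, −0.08, 0.37 and −0.06, none past the threshold over all splits. Single stroma markers did differ: of 7, 2 were called higher and 1 lower. The 3′ minus 5′ signal of Gapdh, a measure of RNA quality, was −0.19 in controls and −0.26 in mutants, lower in 8 of 8 pairs. That of beta-actin was 1.07 in controls and 0.97 in mutants, lower in 7 of 8 pairs. Both differences passed the threshold when arrays were permuted inside their pairs (adjusted p = 0.0234 for Gapdh, 0.0312 for beta-actin). Permuted over all splits, neither passed (adjusted p = 0.193 for each). The part of these differences in the results below was not tested beyond the covariate fits given. The 3 markers of adipocytes, which also express Pde3b, averaged 5.02 in controls and 5.00 in mutants, below the lowest array median of 6.29.

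Of the 9 measured genes, 1 was called, Adcy6, which rose. In the same comparison 8.76% of all genes were called (limma, adjusted p under 0.05 over all genes), 4.1% higher and 4.66% lower, so 1 in 9 is near the share of genes in general. The median difference of the 9 genes was 0.03, against −0.01 for all genes, and their median size of difference was 0.13 against 0.09. In 0 of the 9 genes were the arrays of the groups fully separated, as they were for 2.29% of all genes. The same replicate numbers occur in both groups, and arrays of one number deviated together. With the number as a block, Adcy6 and Adcy7 were called higher and Adcy9 lower, 3 of 9, where 17.6% of all genes were called.

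**Figure D1:**
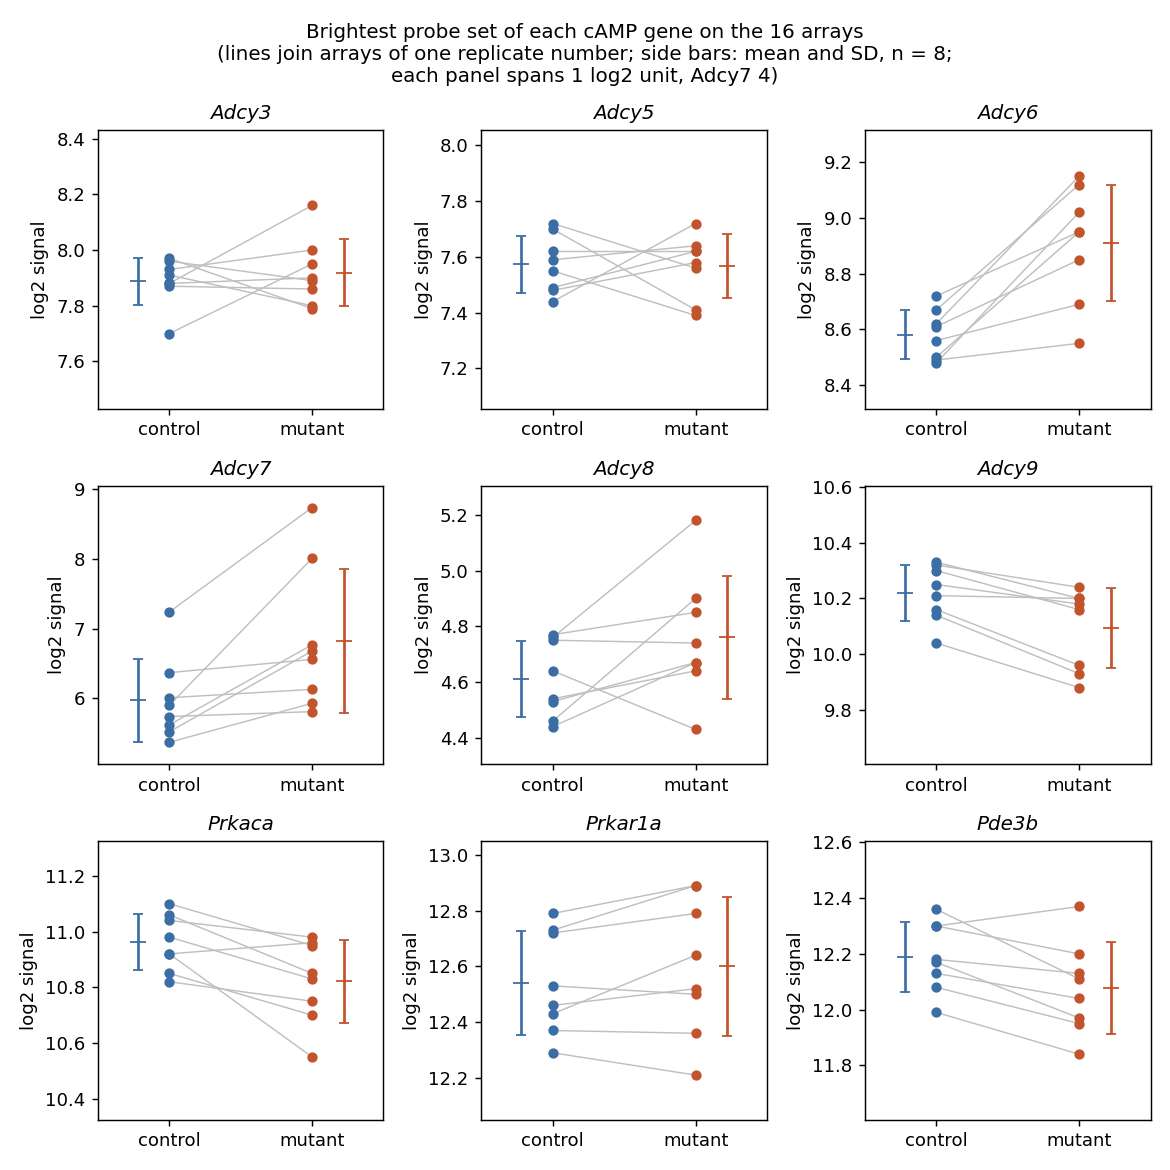
Log2 signal (vertical axes) of the brightest probe set of each measured gene in control and mutant islets, 1 point per array, with lines joining arrays of one replicate number and bars giving mean and SD (n = 8 per group). Adcy6 is higher in the mutant in 8 of 8 pairs and Adcy9 lower in 8 of 8, with overlapping groups in both. The Adcy7 axis spans 4 log2 units and every other axis 1.

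Adcy6, a cyclase inhibited by calcium and by inhibitory G proteins, rose 1.26-fold. Its single probe set read 8.48 at the lowest, 8.58 at the median and 8.72 at the highest in controls, and 8.55, 8.95 and 9.15 in mutants. In 6 of the 8 mutant arrays the signal lay above every control, and mutant replicates 8 and 1 were the lowest of their group. The difference was 0.33 ± 0.08 (SE, limma adjusted p = 0.013), with a 95% interval from 0.16 to 0.50, and the mutant was higher in 8 of 8 pairs. The call was kept when any 1 array was left out (adjusted p 0.002 to 0.0285). It was lost without pairs 1 to 3, where the difference was as large (0.36, adjusted p = 0.0946), and in a fit that included the 3′ minus 5′ signals (0.29, adjusted p = 0.0774; 0.27 and adjusted p = 0.508 with the block as well). With the block and both the acinar and immune means the difference was 0.06 ± 0.22 (adjusted p = 0.986), in a fit that called 8 of all genes. The acinar mean was lower in 8 of 8 pairs, so that fit separates it poorly from genotype.

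The genes whose signal ran closest to that of Adcy6 over the 16 arrays were Glis2, a zinc finger factor gene, Neo1, which encodes the netrin receptor neogenin, and Pgrmc1, which encodes a haem-binding membrane protein. After centring on each gene's mean, their root mean square difference from Adcy6 was 0.08, 0.10 and 0.11, against a median of 0.28 for the genes compared. A gene flat over the arrays would score 0.22 on this measure. Glis2 rose from 8.68 to 8.94 (0.26 ± 0.07, limma adjusted p = 0.0177). Pgrmc1 rose from 11.76 to 12.03 (adjusted p = 0.00806), whereas Neo1, at 9.51 and 9.79, did not pass the test (0.28 ± 0.09, adjusted p = 0.0547). They were picked for likeness to a gene that rose, so their differences are a description.

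Adcy5, the other calcium-inhibited cyclase of the set, showed a difference near 0 that did not pass the test. Its brightest probe set read 7.44, 7.57 and 7.72 (lowest, median and highest) in controls and 7.39, 7.60 and 7.72 in mutants, so that the groups covered nearly the same range. The difference was −0.01 ± 0.06 (limma adjusted p = 0.963), with a 95% interval from −0.14 to 0.12, and it was lower in 4 of 8 pairs. The name of this probe set ends in x, which marks probes that may also bind other transcripts. The other 3 probe sets of Adcy5, with control means from 4.99 to 6.13, differed by −0.06, 0.11 and 0.00, and none was called.

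Adcy8 encodes the cyclase that calcium and calmodulin stimulate. Its only probe set averaged below the median of 6.32 over all probe sets, the 1 gene of the set to do so. Controls read from 4.44 to 4.77 with a median of 4.59, and mutants from 4.43 to 5.18 with a median of 4.71. The highest mutant array was replicate 1, the array with the highest immune-cell marker mean. The difference of 0.15 ± 0.09 did not pass the test (limma adjusted p = 0.368, 95% interval −0.04 to 0.33).

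Adcy3, a calmodulin-regulated cyclase best known from olfactory neurons and primary cilia, gave different readings from its 4 probe sets. The brightest read 7.70, 7.89 and 7.97 in controls and 7.79, 7.89 and 8.16 in mutants, a difference of 0.03 ± 0.06 (limma adjusted p = 0.814). The next brightest went from 7.33 ± 0.16 (SD) to 7.56 ± 0.18, a difference of 0.23 ± 0.09 that was positive in 7 of 8 pairs but did not pass the test (adjusted p = 0.135 over all probe sets). Another, at 5.65 in controls, differed by 0.14 and was higher in 7 of 8 pairs (adjusted p = 0.272). The last, at 5.76 in controls and with the x suffix, differed by −0.05 ± 0.07 and was lower in 4 of 8 pairs. The sign for Adcy3 thus differed between probe sets, none of them called, and with the mean of its probe sets the difference was 0.09 ± 0.05 (adjusted p = 0.309).

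Adcy7, the cyclase typical of blood and immune cells, had the largest and least even difference of the set. Its brightest probe set read 5.37, 5.82 and 7.24 in controls and 5.81, 6.62 and 8.74 in mutants. The control mean of 5.97 lay below the median of 6.32 over all probe sets. Mutant replicates 1 and 3, at 8.74 and 8.01, were the 2 arrays above every control, and the highest control was replicate 1 at 7.24. On the same 3 arrays the immune-cell markers averaged highest. The difference was 0.86 ± 0.38 (limma adjusted p = 0.2, 95% interval 0.05 to 1.66), positive in 8 of 8 pairs, and it passed the test with the replicate block (0.86 ± 0.21, adjusted p = 0.0179).

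The size of the Adcy7 difference varied between fits. With the immune mean as a covariate it was 0.29 ± 0.12 (limma adjusted p = 0.178), and without pairs 1 to 3 it was 0.42 ± 0.22 (adjusted p = 0.369). With the acinar mean as the covariate it was larger and was called (1.43 ± 0.38, adjusted p = 0.0224). It was 0.58 without mutant replicate 1, 0.69 without mutant replicate 3 and 1.04 without control replicate 1, called in none of these. With the block and the immune mean, a fit chosen after seeing the data, it was 0.39 ± 0.09 (adjusted p = 0.0164). A dimmer probe set of Adcy7 went from 4.11 ± 0.34 (SD) to 4.80 ± 0.74, higher in 8 of 8 pairs with the same 2 mutant arrays at the top (6.15 and 5.64), and the remaining one differed by −0.05 ± 0.08. Of the 13 immune-cell markers 1 was called higher, the complement gene C1qa, by 0.88 ± 0.19 (adjusted p = 0.00598), while the pan-leukocyte marker gene Ptprc differed by the same 0.88 with an SE of 0.75 (adjusted p = 0.569).

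**Figure D2:**
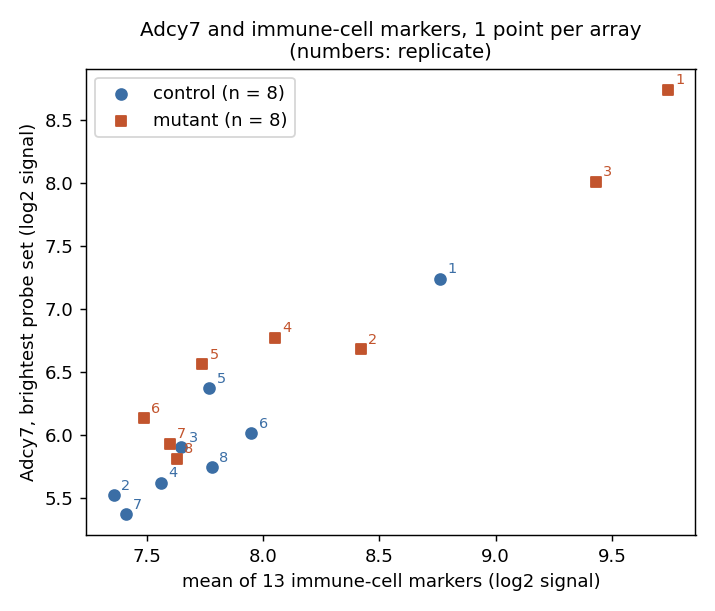
Log2 signal of Adcy7 (vertical axis) against the mean log2 signal of 13 immune-cell markers (horizontal axis), 1 point per array, labelled by replicate number. Mutant replicates 1 and 3 and control replicate 1 lie at the upper right, at 8.74, 8.01 and 7.24 for Adcy7, and the other arrays reach at most 6.77 on the vertical axis.

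Adcy9 encodes a widely expressed cyclase that responds poorly to forskolin. All 4 of its probe sets read lower in the mutant. The brightest had 10.04, 10.23 and 10.33 in controls and 9.88, 10.17 and 10.24 in mutants, with 3 mutant arrays (replicates 1, 5 and 7) below every control. The difference of −0.13 ± 0.06 did not pass the test (limma adjusted p = 0.282, 95% interval −0.26 to 0.01) but was negative in 8 of 8 pairs, and with the replicate block it was called (−0.13 ± 0.04, adjusted p = 0.0383). The other probe sets differed by −0.21, −0.19 and −0.21, negative in 8, 7 and 8 of 8 pairs, with adjusted p of 0.108, 0.218 and 0.148 over all probe sets. With the 3′ minus 5′ signal as a covariate the difference of the brightest probe set was −0.01 ± 0.05 (adjusted p = 0.945), and in the block with that signal −0.12 ± 0.09 (adjusted p = 0.679).

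**Figure D3:**
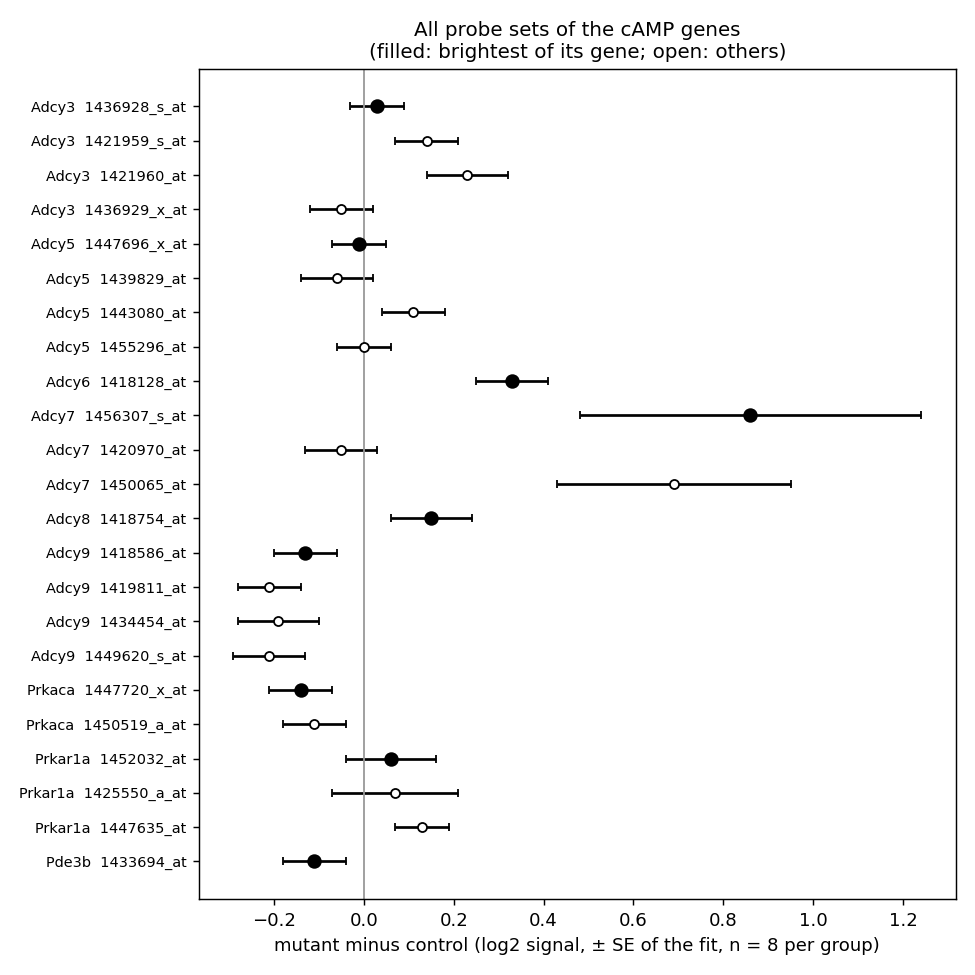
Mutant minus control difference in log2 signal (horizontal axis, with the SE of the fit, n = 8 per group) for all 23 probe sets of the 9 genes, the brightest of each gene filled. The 4 Adcy9 probe sets all lie between −0.13 and −0.21, whereas those of Adcy3 lie between −0.05 and 0.23 and those of Adcy7 between −0.05 and 0.86.

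Among the effectors, Prkaca encodes the main catalytic subunit of protein kinase A. Its brightest probe set, another with the x suffix, read 10.82, 10.95 and 11.10 in controls and 10.55, 10.84 and 10.98 in mutants. The difference of −0.14 ± 0.07 did not pass the test (limma adjusted p = 0.223, 95% interval −0.28 to 0.00), with the mutant lower in 7 of 8 pairs and replicate 1 the lowest. Among the alternative fits it was called with the acinar mean included (−0.23, adjusted p = 0.0384), and its other probe set differed by −0.11 ± 0.07.

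Prkar1a encodes a regulatory subunit that holds the kinase inactive until cAMP binds. It read 12.29, 12.50 and 12.79 in controls and 12.21, 12.58 and 12.89 in mutants, a difference of 0.06 ± 0.10 (limma adjusted p = 0.81, 95% interval −0.16 to 0.28). Replicate 3 was the lowest array of both groups, and the groups covered nearly the same range. The other probe sets differed by 0.07 ± 0.14 and 0.13 ± 0.06, and neither was called.

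Pde3b encodes a phosphodiesterase that breaks down cAMP in beta cells and adipocytes. Its 1 probe set read 11.99, 12.17 and 12.36 in controls and 11.84, 12.07 and 12.37 in mutants. The difference was −0.11 ± 0.07 (limma adjusted p = 0.424, 95% interval −0.27 to 0.04), lower in 7 of 8 pairs. In both groups replicate 1 was the lowest array, and the groups overlapped over most of their range.

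The wider cAMP pathway was described from a list of 102 further genes, of which 92 were measured. Of these 11 were called, 5 higher and 6 lower, beside the 8.76% of all genes, and the median difference was −0.01, equal to that of all genes. With the replicate block 27 were called, 14 higher and 13 lower, beside 17.6% of all genes in that fit. None of the 11 kept its call with the block and both the acinar and immune means, a fit that called 8 of all genes. With the block and the 3′ minus 5′ signals, a fit that called 238 of all genes, 3 of the 11 kept theirs: Adcy1, Adora3 and Pkib. Both fits lost most calls over all genes, from 1594 in the main comparison. Each holds, beside the block, a covariate that moved with genotype inside pairs, so a lost call does not show that a difference is absent.

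Among the other cyclases, 1 of 4 was called. Adcy1, the calcium-stimulated cyclase of neurons, rose 1.85-fold. It read 6.54, 6.74 and 7.04 in controls and 6.80, 7.66 and 8.43 in mutants, and mutant replicate 3 was the 1 array within the control range. The difference was 0.89 ± 0.18 (limma adjusted p = 0.00458), and its second probe set, at 4.33 in controls, differed by 0.10 ± 0.08. The mutant was higher in 7 of 8 pairs.

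Upstream of the cyclases, 2 of 7 stimulatory receptor genes fell and none rose. These were the incretin receptor genes Glp1r, 2.11-fold lower (adjusted p = 0.000125), and Gipr, 1.43-fold lower. Gipr read 6.29 to 7.21 in controls and 5.87 to 6.27 in mutants, without overlap (−0.51 ± 0.11, limma adjusted p = 0.00576), although these signals lie near or below the array medians. Without pairs 1 to 3 its difference was −0.52 (adjusted p = 0.0514).

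Of 10 receptor genes that couple to inhibitory G proteins, Adora3 fell 3.35-fold (−1.75 ± 0.21, limma adjusted p = 5.16e-05). Its second probe set, at 3.67 in controls, differed by −0.04 ± 0.07, and with the mean of the probe sets the difference was −0.89 (adjusted p = 0.000203). The somatostatin receptor gene Sstr2 rose 1.46-fold (0.54 ± 0.12, limma adjusted p = 0.00787; 0.62 and adjusted p = 0.0563 without pairs 1 to 3, 0.40 and 0.0748 with the 3′ minus 5′ signals). Of 9 G protein genes, Gnai2, encoding an inhibitory alpha subunit, fell 1.19-fold. It read from 11.50 to 11.84 in controls and from 11.22 to 11.46 in mutants, with no overlap (−0.25 ± 0.06, adjusted p = 0.0095; −0.20 and adjusted p = 0.0933 without pairs 1 to 3, −0.26 and 0.0807 with the mean of its probe sets). Gnas, the stimulatory alpha subunit gene, differed by 0.08 ± 0.06 (limma adjusted p = 0.482).

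Around protein kinase A, 1 of 7 subunit and inhibitor genes was called. Pkib, which encodes a peptide inhibitor of the catalytic subunit, fell 2.31-fold, from 6.79, 7.63 and 8.26 in controls to 5.56, 6.58 and 6.97 in mutants. The groups overlapped through control replicate 5 alone. The difference was −1.21 ± 0.21 (limma adjusted p = 0.00132), lower in 8 of 8 pairs, and its second probe set also fell (−0.79 ± 0.19, adjusted p = 0.0166 over all probe sets). Of 10 anchoring protein genes and 10 Epac and Rap genes none was called. Those with the lowest p were Akap11 (−0.25 ± 0.08, adjusted p = 0.0558) and Rap1gap2 (−0.32 ± 0.10, adjusted p = 0.0605), and both were called with the replicate block (adjusted p = 0.00252 and 0.0177).

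Of 14 further phosphodiesterase genes 2 were called, in opposite directions. Pde8a, encoding a high-affinity cAMP phosphodiesterase, fell 1.29-fold (−0.37 ± 0.07, limma adjusted p = 0.00181), and was lower in 8 of 8 pairs (−0.28, adjusted p = 0.078, without pairs 1 to 3). Pde4d, another cAMP-specific enzyme gene, rose 1.40-fold, from 6.97, 7.45 and 7.68 to 7.63, 7.92 and 8.11 (0.49 ± 0.10, adjusted p = 0.00443). A second Pde4d probe set went from 5.19 to 6.58 (1.39 ± 0.27, adjusted p = 0.00381 over all probe sets). The difference of the brightest was 0.20 with the block and the 3′ minus 5′ signals (adjusted p = 0.683).

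Downstream, none of 7 measured CREB factor and coactivator genes was called, and the lowest p was that of Crebbp (0.14 ± 0.07, limma adjusted p = 0.283). With the replicate block 1 was called, Crem, which encodes a CREB-related factor (0.39 ± 0.10, adjusted p = 0.0168). Of 14 genes known to be induced by cAMP, 2 rose and 0 fell, beside 8.76% of all genes called in either direction. Of the 14, 10 differed above 0, as did 8748 of all 18193 genes, and the median was 0.31 against −0.01 for all genes. The list was not tested as a set, and cAMP itself was not measured. With the block 6 were called higher and 1 lower, where 17.6% of all genes were called in either direction. Rgs2, which encodes a regulator of G protein signalling, rose 2.75-fold, from 10.48, 11.32 and 13.10 to 12.22, 12.90 and 13.74 (1.46 ± 0.34, adjusted p = 0.0112). All 4 Rgs2 probe sets were called higher, while control replicate 8, at 13.10, lay inside the mutant range. The nuclear receptor gene Nr4a2 rose 2.11-fold (1.07 ± 0.29, adjusted p = 0.0253). Of its 6 probe sets 3 were called, the others differing by −0.01, 0.14 and 0.30, and with the mean of the probe sets the difference was 0.58 (adjusted p = 0.0222). Its call was lost without mutant replicate 5 or control replicate 6, 7 or 8 (adjusted p = 0.0504, 0.0549, 0.0518 and 0.054), with the immune mean (0.91, adjusted p = 0.0654) and with the 3′ minus 5′ signals (0.74, adjusted p = 0.187). Without pairs 1 to 3 the difference of Rgs2 was 1.37 (adjusted p = 0.134).

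**Figure D4:**
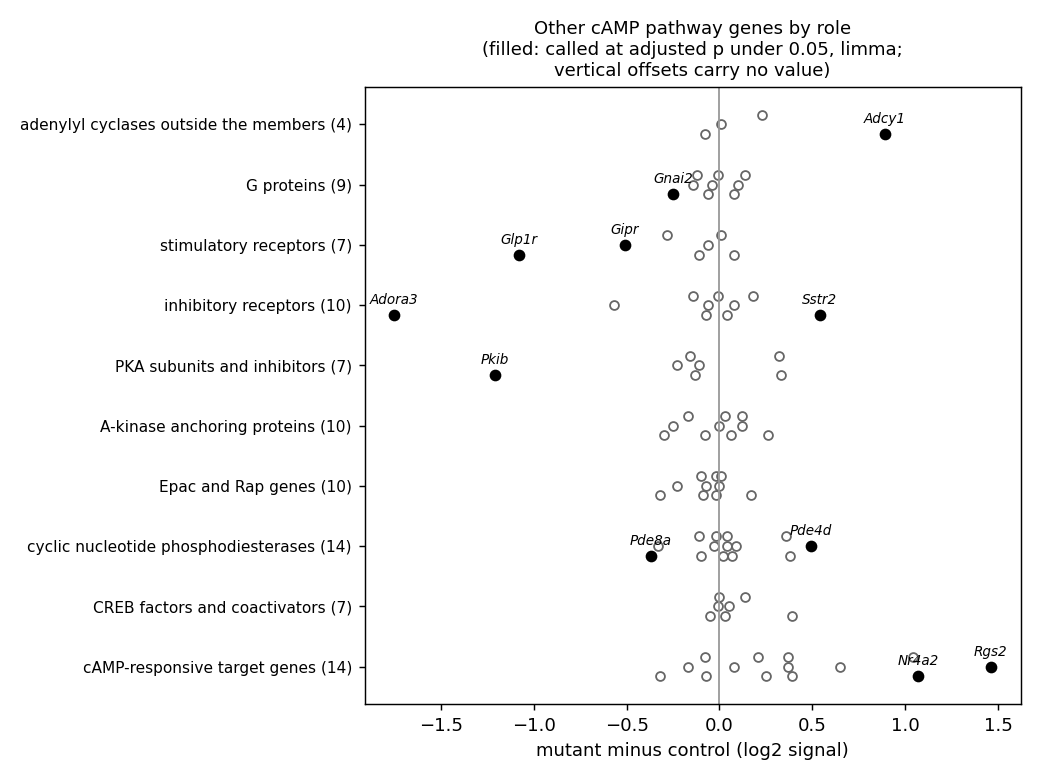
Mutant minus control difference in log2 signal (horizontal axis) of the 92 measured pathway genes outside the set, in rows by role with the number measured, filled where called by limma. The 11 called genes are named: Adcy1, Sstr2, Pde4d, Rgs2 and Nr4a2 lie above 0 and Gnai2, Glp1r, Gipr, Adora3, Pkib and Pde8a below it.

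Promoter sequence was examined for the cAMP response element that CREB binds. RefSeq promoters (GRCm38.p6) were held for 7 of the 10 genes, Rapgef4 among them, but not for Adcy6, Adcy8 or Pde3b. They gave 16 windows of 250 bases upstream of a start site. The full element, TGACGTCA, which reads the same on both strands, occurred in 1 of them, upstream of a Prkar1a start site, against 1.55% of 32851 promoter windows of this length. Its shorter core TGACG, which the full element contains, occurred on either strand in 6 of the 16 windows, of Adcy7, Adcy9, Prkaca and Prkar1a, and in 17.8% of all windows. Of these 6 windows 3 belong to Prkar1a, and a pair of them overlap and share a site. Of the called pathway genes 9 had a promoter, in 10 windows. The core was in 4 of these 10, of Sstr2, Pde8a, Rgs2 and Nr4a2, and the full element in 1, of Sstr2. The forkhead core TGTTTAC was in 0 of the 16 windows (3.17% of all), the E-box CAGATG in 2 windows of Adcy7 (14.4% of all), and the E-box CAGCTG in 3 windows, of Prkaca and Prkar1a (13% of all). Shown are Adcy9 and Adcy7, the members called with the block that had a promoter in the table, and Rgs2, the called cAMP-induced gene with the largest change. They lie at chr16:4420499-4420748 on the minus strand, chr8:88282742-88282991 on the plus strand (the most distal of 3 Adcy7 start sites) and chr1:144004150-144004399 on the minus strand. The Adcy7 window shown is the only 1 of its 3 with the core. Capitals mark the core on either strand, CGTCA being its reverse complement, and each sequence ends just before the start site.
Adcy9: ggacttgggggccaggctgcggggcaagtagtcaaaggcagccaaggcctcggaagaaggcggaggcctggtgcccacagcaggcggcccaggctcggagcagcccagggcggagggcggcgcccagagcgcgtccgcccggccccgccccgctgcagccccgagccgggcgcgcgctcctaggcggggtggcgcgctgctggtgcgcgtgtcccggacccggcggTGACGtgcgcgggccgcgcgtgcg
Adcy7: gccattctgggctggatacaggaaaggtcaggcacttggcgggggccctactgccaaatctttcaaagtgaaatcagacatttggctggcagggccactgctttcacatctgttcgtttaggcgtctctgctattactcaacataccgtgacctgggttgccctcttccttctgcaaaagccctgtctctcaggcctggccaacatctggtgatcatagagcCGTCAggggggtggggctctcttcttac
Rgs2: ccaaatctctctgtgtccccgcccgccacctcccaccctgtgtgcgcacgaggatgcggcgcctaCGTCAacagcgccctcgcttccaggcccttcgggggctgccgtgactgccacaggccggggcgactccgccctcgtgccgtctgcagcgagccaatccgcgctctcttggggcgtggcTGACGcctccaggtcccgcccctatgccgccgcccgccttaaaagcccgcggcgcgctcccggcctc
The core begins 24 bases before the start of Adcy9, 28 bases before that of Adcy7, and 185 and 67 bases before that of Rgs2. These matches describe the letters of the windows and show neither binding nor a cause of the differences above.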

How the data were processed

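Total RNA from islets, 150 ng per sample, was labelled by 3′ IVT amplification and hybridised to Affymetrix Mouse430_2 arrays, per the labels' protocols. The deposited values are log2 signals per probe set. The authors' background correction, summarisation and normalisation are not given in the sources used here, and array medians lay between 6.29 and 6.35. The log base was inferred from this range and the highest value of 15.39. No detection calls were used.

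Of 45101 probe sets, 64 controls were left out, and 34945 named 1 gene, 932 several and 9160 none. Symbols were updated through gene identifiers for 34741. The brightest probe set stood for each of 18193 genes. The test was limma 3.58.1 under R 4.3.3 (functions lmFit and eBayes with trend, genotype as the only term, two-sided), with Benjamini-Hochberg adjustment over all genes and calls at adjusted p under 0.05. Intervals are unadjusted. The method was tested on simulated data with independent arrays and planted changes. It recovered 81 of 100 at 1.5-fold and 98 of 100 at 3-fold, and 6.3% of its calls were unchanged genes. Smaller changes and paired arrays were not simulated. Means of 10 marker lists and 2 RNA quality measures were compared by exact two-sided permutation over all 12870 splits and over the 256 swaps within pairs, adjusted over these 12.

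For the pair counts, the swaps and the block, arrays of one replicate number were taken as pairs. Deviations from the group means correlated between them in all 8 pairs (0.237 to 0.735), against a median of −0.0978 between other numbers. The main fit did not use the pairs. The labels do not state that these animals were littermates.

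Members and lists were chosen with earlier results of these data known. Genes named are all members, up to 4 called genes of each pathway list by size of change (otherwise the one with the lowest p), and the 3 genes closest to Adcy6. Gnas, Crem, Ptprc and C1qa were named after their values were seen. Alternatives were other normalisation, filters, probe set rules, variance settings, array weights, covariates, the replicate block and left-out arrays. One, the block with the immune mean, was chosen after seeing the data. The positions of probes in transcripts were not used here.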

Additional observations from a re-analysis of the deposited data

Results flagged for a closer look

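In 5 groups of 8 arrays 1 value lay far from the rest, out of 70 groups examined (members, named pathway genes, marker means and RNA quality measures), and chance alone gives about 1 in 20. Adcy3 read 7.70 in control replicate 2, and the next lowest control 7.87. Gnai2 read 11.84 in control replicate 1, above 11.65. Adora3 read 7.92 in control replicate 7, below 9.06. The immune-cell marker mean was 8.76 in control replicate 1, with the next control at 7.95, and Adcy7 was also highest among controls in replicate 1. For Gapdh, 3′ minus 5′ signal was 0.04 in control replicate 2, above −0.15.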

How the results depend on the processing

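The count of the 9 genes called was 1 when each array was left out in turn (lowest 1, highest 1). It was 3 with the replicate block, 3 with the acinar mean as a covariate (Adcy6, Adcy7 and Prkaca) and 2 with the block and the immune mean. It was 0 in limma fits with the 3′ minus 5′ signal (2 at unadjusted p under 0.05), with the block and that signal (0), with the block plus both marker means, acinar and immune (0) and without pairs 1 to 3 (1). Of the other pathway genes, 11 were called in the main comparison and 10 to 14 with an array left out, 27 with the block, 18 with the acinar mean, 21 with the block and the immune mean, 7 without pairs 1 to 3, 4 with the block and the 3′ minus 5′ signal and 0 with the block and both marker means (12 at unadjusted p under 0.05). All genes gave 1594 calls, and 1324 to 1645 with an array left out. There were 3200 with the block, 2010 with the acinar mean and 2209 with the block and the immune mean. The count was 1064 with the 3′ minus 5′ signal, and 828 without pairs 1 to 3, which fits fewer arrays. With the block and the 3′ minus 5′ signal it was 238, and with the block and both means 8. The acinar mean and the Gapdh 3′ minus 5′ signal were lower in 8 of 8 pairs. Beside the block they are therefore hard to separate from genotype. The SE of the Adcy6 difference was 0.06 with the block and 0.22 with the block and both means. The block changed the call of no member other than Adcy7 and Adcy9. No called difference of a member or named gene changed sign. Uncalled differences changed sign in 10 settings for Adcy5, 3 for Adcy3 and 2 for Prkar1a. Quantile normalisation and median centring left the median of all genes at −0.01 and −0.02. Adcy8 averaged below the array medians, and without dim genes it has no value.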
